A study of Mus musculus with 43 samples.

Results

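Enteroendocrine-like cells were examined in 4 single-cell RNA libraries of primary mouse intestinal organoids, cultures in which intestinal epithelium grows as hollow structures with crypt-like buds. A cell was counted as enteroendocrine-like when its unique molecular identifiers (UMIs, one tag per captured RNA molecule) of Chga, Chgb, Cck and Insm1 summed to at least 5 per 10000 UMIs of that cell. Of 12323 cells with at least 500 UMIs and at most 20% mitochondrial UMIs, 126 met this rule, which is 1.02% (exact binomial 95% interval 0.852 to 1.22%). The organoids were C57BL/6 wild type, had received 4 Gy of radiation on day 4, and were collected on day 8. They had been given vehicle for 24 h (the 0 h library) or 1 ng/mL of TGFB1 for the last 6, 15 or 24 h, with 1 library per time. All 4 libraries were therefore irradiated, and none of them shows what radiation alone does. With 1 library per time no test between times was possible, and the intervals given cover counting error only.

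Bulk RNA of the same kind of organoid supplied replicated values for the same genes. These wild-type C57BL/6 organoids were either not irradiated and collected on day 7 (D7), or given 4 Gy on day 4 and collected on D7 or on day 11 (D11). Each of these 3 conditions had 3 libraries with vehicle and 3 with 2 ng/mL of TGFB1, given on day 6 for 24 h. The D11 organoids were thus collected days after the exposure had ended. The dose differed from that of the single cells. The series also held sorted Ki67-RFP positive, DAPI-negative crypt cells of Mki67tm1.1Cle/J mice, 1 library from a non-irradiated littermate and 2 from mice 56 h after 12 Gy of whole-body radiation.

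Enteroendocrine cells are the hormone-secreting cells of the gut epithelium. They arise from crypt progenitors in which the transcription factor Neurog3 is briefly switched on, followed by Neurod1, Nkx2-2, Fev and Insm1, a zinc-finger transcription factor that endocrine cells need to differentiate. Mature cells store peptides or serotonin in dense-core granules, whose matrix is built from chromogranins such as Chga and Chgb. Subtypes are named for their product, for example Cck (cholecystokinin, a signal of fat and protein in the meal), Gcg (which encodes GLP-1), Sst (somatostatin), Ghrl (ghrelin), Gip, Sct (secretin) and Tph1 (the enzyme that starts serotonin synthesis).

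Promoters are shown for 3 of the 4 marker genes, those that had an entry in the promoter set used. The choice did not rest on their levels in the bulk RNA described below. Each line gives the 250 bases upstream of the transcription start in RefSeq (GRCm38.p6), from 5′ to 3′ on the strand of the gene, with matched letters in capitals.
Chga: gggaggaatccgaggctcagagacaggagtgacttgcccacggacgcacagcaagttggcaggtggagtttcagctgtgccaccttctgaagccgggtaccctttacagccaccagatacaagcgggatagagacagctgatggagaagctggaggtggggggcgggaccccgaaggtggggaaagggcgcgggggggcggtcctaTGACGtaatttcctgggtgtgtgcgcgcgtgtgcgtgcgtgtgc
Chgb: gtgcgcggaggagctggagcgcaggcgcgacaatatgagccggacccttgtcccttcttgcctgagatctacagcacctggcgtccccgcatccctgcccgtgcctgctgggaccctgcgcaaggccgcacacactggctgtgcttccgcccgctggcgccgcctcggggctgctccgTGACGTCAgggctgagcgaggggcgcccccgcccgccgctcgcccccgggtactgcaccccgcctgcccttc
Cck: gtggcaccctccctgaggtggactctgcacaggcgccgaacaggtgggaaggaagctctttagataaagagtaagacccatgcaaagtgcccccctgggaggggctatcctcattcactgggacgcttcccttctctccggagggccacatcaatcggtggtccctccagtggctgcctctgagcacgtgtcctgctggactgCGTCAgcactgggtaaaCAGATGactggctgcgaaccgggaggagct
These windows lie at chr12:102554691-102554940 (plus strand), chr2:132781392-132781641 (plus strand) and chr9:121495695-121495944 (minus strand). The motifs searched on both strands were TGACG, the core of the cAMP response element, its full palindrome TGACGTCA, and CAGATG, an E-box of the kind bound by NEUROD1. Chga held TGACG 44 bases before its start, Chgb held TGACGTCA at 72 bases, and Cck held TGACG on the opposite strand (capital CGTCA) at 47 bases and CAGATG at 30 bases. TGACGTCA contains TGACG on each strand, so the Chgb match counts under both. Of 32851 promoter windows of the same length, 17.8% held TGACG, 1.55% TGACGTCA and 14.4% CAGATG. A match describes letters in the sequence and does not show binding. Insm1 is named only.

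The share of enteroendocrine-like cells was highest at 24 h and next highest at 15 h of TGFB1. At 0 h 18 of 2932 cells met the rule, which is 0.614% (0.364 to 0.969%), and at 6 h 23 of 4283, which is 0.537% (0.341 to 0.805%). At 15 h the count was 36 of 2890, or 1.25% (0.874 to 1.72%), and at 24 h it was 49 of 2218, or 2.21% (1.64 to 2.91%). The intervals at 0 and 6 h overlapped, and that at 24 h lay above both. The order of the last 2 times above the first 2 held in all 15 definitions tried, from a lower threshold to a definition that used no marker of the rule. The ratio of the 24 h to the 0 h share ranged over them from 2.64 to 5.05. The number of other cells captured also differed between libraries, and loss or survival of other cell types cannot be told apart from gain of enteroendocrine-like cells in a share.

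**Figure D1:**
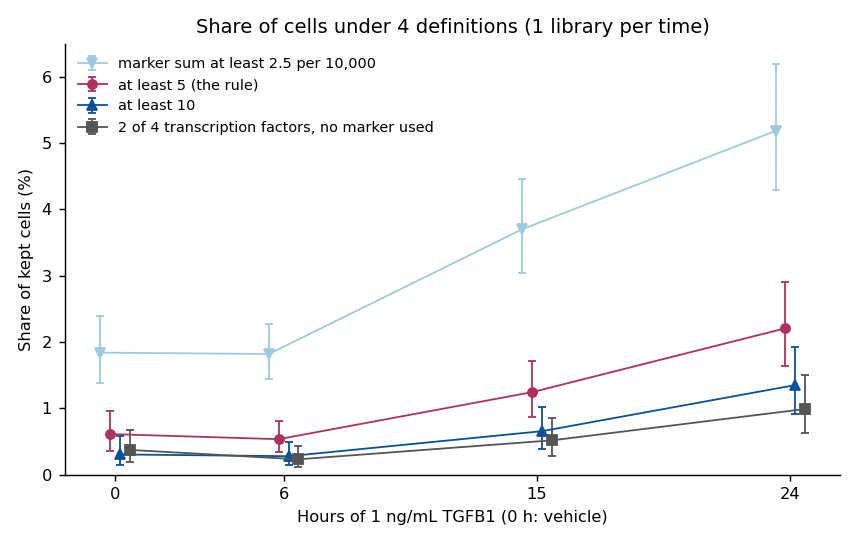
Share of kept cells (y axis, percent) against hours of TGFB1 (x axis) under 4 definitions, with exact binomial 95% intervals. For each definition the 24 h point is the highest and the 15 h point is next, from 0.614% at 0 h to 2.21% at 24 h under the rule.

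Members carried fewer UMIs than the other cells of their library. Their median depth was 3997, 3574, 3559 and 4524 UMIs at 0, 6, 15 and 24 h, against 8227, 6721, 7865 and 10695 in the other cells. Because the rule is a rate, a shallow cell meets it with few molecules: 2, 7, 11 and 3 members at the successive times rested on 2 marker UMIs. After each cell was thinned to 2000 UMIs, 0.512, 0.468, 1.18 and 2.07% of cells kept at least 2 marker UMIs, which is the same order of times. With 1 marker UMI sufficient after thinning the shares were 3.48, 3.16, 6.71 and 9.96%. The median mitochondrial share of members was 3.66, 4.04, 5.52 and 5.94%, against 2.95, 3.23, 4.31 and 4.83% in the other cells. No member barcode was shared between libraries, and 1 member (at 15 h) was called a doublet by Scrublet.

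The other cells supplied the background for the marker genes. Their summed level of the 4 markers was 14.6, 11.9, 22.5 and 34.2 CPM (UMIs per 1000000 UMIs of the summed cells) at 0, 6, 15 and 24 h. Members held 32.3, 32.7, 45.6 and 71.5% of all marker UMIs of their library. Enterocyte-like cells rich in Fabp1 (at least 100 per 10000 UMIs), which should lack these genes, numbered 998, 1514, 881 and 362. Of these, 3, 1, 3 and 0 met the rule and are counted in both groups that follow. Thinned to 2000 UMIs, 2.91, 2.84, 4.88 and 4.97% of the Fabp1-rich cells still showed a marker UMI. The figures for members were 88.9, 91.3, 91.7 and 95.9%. The median depth of these Fabp1-rich cells before thinning was 8163, 6518, 8772 and 17556 UMIs. A single marker UMI in a cell of this depth was thus also seen in cells of another type, and the rule places members above that level by construction.

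Just inside the threshold the lowest members of the 4 libraries had marker sums of 5.27, 5.02, 5.24 and 5.03 per 10000. The highest cells left outside had 5.00, 4.93, 4.87 and 4.95. Cells between 2.5 and 5 per 10000 numbered 36, 55, 71 and 66, so the boundary cuts a continuous range.

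The marker sum spread widely among members, and its upper end was filled mainly at 24 h. The highest cell reached 98.6 per 10000 at 0 h, 249 at 6 h, 313 at 15 h and 1423 at 24 h. Cells of at least 100 per 10000 numbered 0, 1, 4 and 12 at the successive times. Cells between 5 and 10 numbered 9, 11, 17 and 19. Both ends of the range thus held more cells at 24 h than at 0 h.

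**Figure D2:**
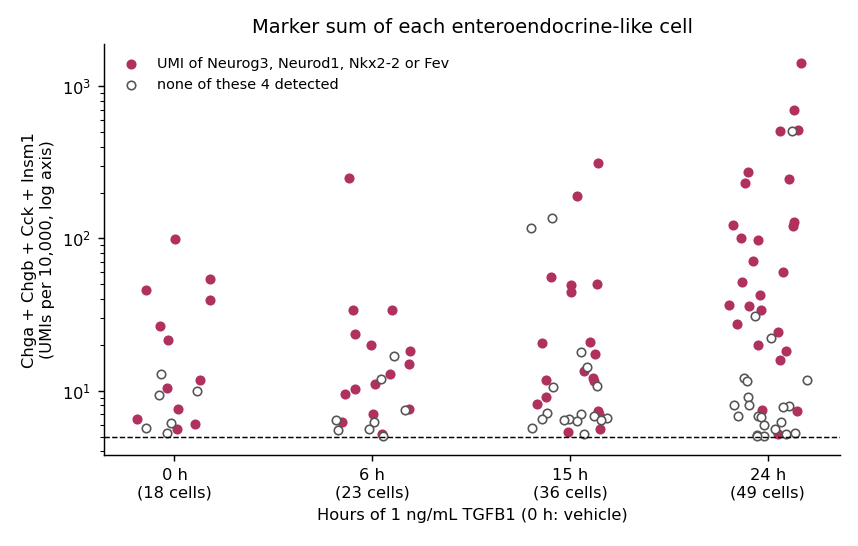
Sum of Chga, Chgb, Cck and Insm1 (y axis, UMIs per 10000, log scale) of each enteroendocrine-like cell by hours of TGFB1 (x axis). Filled points carry a UMI of Neurog3, Neurod1, Nkx2-2 or Fev, and the dashed line is the rule's threshold of 5, near which open points are common.

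The label was set beside 4 transcription factors of the lineage that the rule did not use, Neurog3, Neurod1, Nkx2-2 and Fev. These 4 were picked after the values were seen, so the comparison describes the members and is no independent check of the name. At least 1 of them was detected in 73 of 126 members (57.9%) and in 136 of 12197 other cells (1.12%). The fraction rose with the marker sum up to the band of 20 to 100 per 10000 and was lower above it. It was 18 of 56 cells between 5 and 10, 16 of 26 between 10 and 20, 25 of 27 between 20 and 100 and 14 of 17 above that. By this description the name enteroendocrine-like rests most firmly on the 44 cells of at least 20 per 10000, of which 39 had such a factor. The 19 cells between 5 and 10 at 24 h were the least secure, since 3 of them had a factor UMI. Their median mitochondrial share was 9.28%, and 7SK, a small nuclear RNA, reached a median of 18.6 per 10000 UMIs in them against 3.82 in the other cells of that library. The higher bands of members at 24 h had 7SK medians of 9.04, 8.27 and 8.94, so raised 7SK was not confined to the least secure cells. The part of RNA quality in their membership was not tested. Cells with at least 2 of the 4 factors, chosen without any marker, numbered 11, 10, 15 and 22, of which 5, 7, 12 and 21 were members.

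Chgb was the most widely detected marker and Cck the most concentrated. Among the 126 members 96 had a Chgb UMI, 69 Chga, 63 Insm1 and 40 Cck. Chga and Chgb, which share the granule, were detected together in 56 members. Chga and Cck occurred together in 14. At least 2 of the 4 markers were found in 88 members and all 4 in 8, each of which was at 24 h. A single marker carried 38 members, 16 of them by Chgb, 12 by Insm1, 6 by Chga and 4 by Cck.

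Marker levels within the members differed over time, as a description since the rule used them. Chga stood at 217, 337, 746 and 1968 CPM at 0, 6, 15 and 24 h. Chgb stood at 1050, 1154, 1303 and 4046 CPM. Cck stood at 498, 61.3, 984 and 3436 CPM. The 24 h value of Cck leaned on single cells: one cell held 643 of its 906 UMIs there, and one held 35 of 46 at 0 h. Insm1, the transcription factor among the markers, varied least, at 281, 357, 319 and 436 CPM, with overlapping intervals at neighbouring times.

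**Figure D3:**
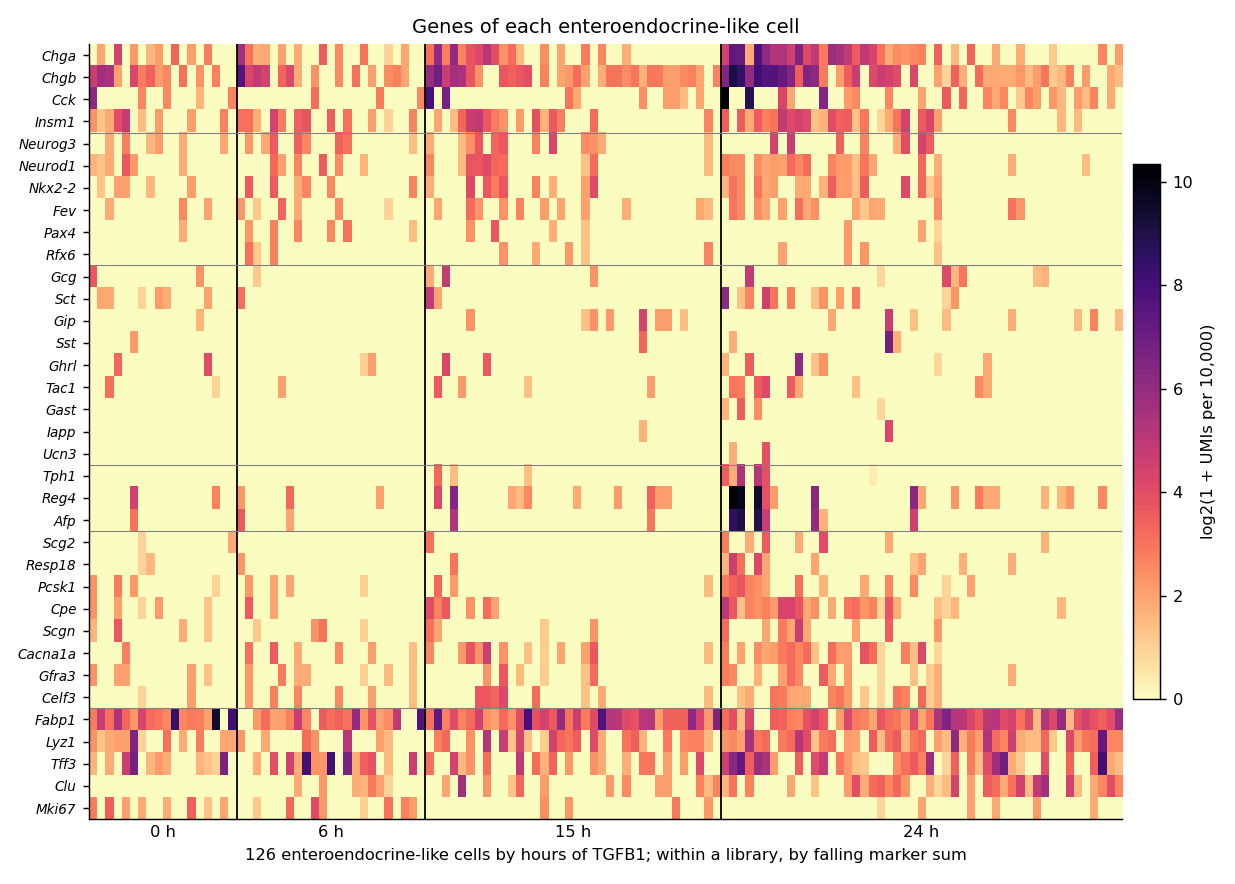
Level of lineage genes and of genes of other cell types (rows, log2 of 1 plus UMIs per 10000) in each of the 126 enteroendocrine-like cells (columns), grouped by hours of TGFB1 and ordered by falling marker sum. Cck is dark in few columns, Reg4 and Afp are dark in the same few columns at 24 h, and the transcription factors thin out toward the right of each block.

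Transcription factors of the lineage were far higher in members than in the other cells. Neurog3, which commits progenitors to the lineage, was detected in 34 members and reached 168 CPM over the 4 libraries, against 0.543 CPM in the other cells (310-fold). Fev, a factor of serotonin-producing and other late endocrine cells, reached 110 against 0.172 CPM (637-fold). Neurod1 and Nkx2-2, which act after Neurog3, stood at 138 and 148 CPM, 274-fold and 223-fold above the others. All 15 factors listed for the lineage had UMIs in members, among them Pax4 in 14 cells, St18 in 16, Myt1 in 13, Rfx6 in 12 and Pax6 in 7. Sox4, which acts before Neurog3 and is also made by other epithelial cells, was detected in 90 members at 1021 CPM.

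Levels in members at 24 h were 1.56-fold to 3.29-fold those at 0 h for the 4 factors set beside the label. Neurod1 was the lowest and Nkx2-2 the highest. Neurog3 stood at 86.6 CPM (37.4 to 171) at 0 h, 174 (101 to 278) at 6 h, 190 (126 to 275) at 15 h and 182 (134 to 241) at 24 h. Neurod1 stood at 97.4, 123, 149 and 152 CPM. The intervals of both genes overlapped at all 4 times. Summed over the 15 factors the level was 1072, 1807, 2300 and 1839 CPM, while the other cells went from 183 to 587 CPM. The sum was mostly Sox4.

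Members with and without a Neurog3 UMI are described side by side, without a test. The 34 members with a Neurog3 UMI numbered 6, 8, 12 and 8 at the successive times, and the 92 without one 12, 15, 24 and 41, so the second set held more late cells. Sox4 reached 2421 CPM in them against 593 in the members without Neurog3. Insm1, which the rule used, reached 880 against 215 CPM. Cck stood at 724 CPM with 100 of its 102 UMIs in one cell. Gcg stood at 14.2 CPM with Neurog3 and 126 CPM without, and Ghrl and Tph1 had 0 UMIs in the Neurog3 cells and 132 and 131 CPM in the others. In those 92 cells Chgb reached 2764 against 1392 CPM and Reg4 3564 CPM. These contrasts split the same cells by a sparse gene, so a member without a Neurog3 UMI may still have expressed it.

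Hormone genes were each confined to few members. Of 15 hormones listed, 10 had UMIs in members: Sct in 21 cells, Gip in 17, Tac1 (substance P) in 16, Gcg and Ghrl in 13 each, Sst in 5, Gast (gastrin) in 4, Pyy in 3, and Iapp (amylin) and Ucn3 (urocortin) in 2 each. Nts, Insl5, Gal, Cartpt and Penk were at 0 UMIs in all 126 cells, with an exact Poisson upper bound of 6.13 CPM for each. Insl5 is a product of colonic cells. Summed over the list, members stood at 379, 61.3, 414 and 990 CPM at 0, 6, 15 and 24 h and the other cells at 17.6, 17.0, 35.9 and 66.5 CPM. Gip was also seen outside the members, at 19.1 CPM in the other cells at 24 h against 72.1 CPM in members. Since the other cells held far more UMIs in all, most Gip UMIs of that library lay outside the members.

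Individual cells held several hormones together. The 7 cells with at least 10 Cck UMIs, of which 1 was at 0 h, 2 at 15 h and 4 at 24 h, included 5 with Sct and 5 with Gcg. All 5 members with at least 3 Gcg UMIs also carried Cck, between 8 and 167 UMIs. Cck is a marker of the rule, so Gcg cells without the markers could not be members, and the other cells held 364 Gcg UMIs. Ghrl at 3 or more UMIs marked 6 cells, all with Chga, and the richest of them had 27 Ghrl, 36 Chga and 10 Scgn UMIs (secretagogin, a calcium-binding protein of granule release). Sst at 3 or more UMIs marked 2 cells, with 4 and 45 UMIs, and both also carried Gip (9 and 10 UMIs) and Iapp (1 and 7 UMIs). Neither had a UMI of Neurog3, Neurod1, Nkx2-2 or Fev. The first rested on 3 marker UMIs and had 450 of its 4527 UMIs in 7SK. The second had 13.4% mitochondrial UMIs. The part of RNA quality in this combination was not tested.

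Serotonin-type cells were seen in the later libraries. Tph1 was detected in 8 members, 3 at 15 h and 5 at 24 h, and in none of the 18 and 23 members at 0 and 6 h. Their number of UMIs was 60, of which 28 lay in one cell. Tph1 stood at 33.9 CPM at 15 h and 209 CPM (157 to 272) at 24 h, and in the pools at 0 h and 6 h no UMI was found, with upper interval bounds of 39.9 and 37.7 CPM. The same 8 cells were rich in Chgb (between 9 and 232 UMIs), and 7 of them had Chga, 7 Reg4, 6 Tac1 and 7 Ddc, the enzyme of the second step of serotonin synthesis. Trpa1, an irritant channel of such cells, had 8 UMIs in 3 members, and Slc18a1, a monoamine transporter of granules, was found in 29 members.

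Reg4 and Afp stood out within this group at 24 h. Reg4, a secreted lectin known in enteroendocrine and goblet cells, was at 130, 51.1, 461 and 5909 CPM in members. Afp, alpha-fetoprotein, was at 2 UMIs in the members at 0 h, 4 UMIs at 6 h, 24 at 15 h and 790 at 24 h (2996 CPM), against 1.68 CPM in the other cells at 24 h. The 790 UMIs came from 7 cells, and 347 from one of them. All 6 members with at least 10 Reg4 UMIs carried at least 14 Afp UMIs, and each had both chromogranins. One cell held 608 Reg4, 347 Afp, 232 Chgb, 97 Chga and 28 Tph1 UMIs. Vim, the intermediate filament gene of mesenchyme, was found in 5 of these 6 cells.

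Genes of granule processing and of excitability accompanied the hormones. Cpe, which trims hormone precursors, was found in 37 members at 65.0, 40.8, 109 and 288 CPM over time, against 6.03 CPM in the other cells at 24 h. Pcsk1, the convertase that cuts the precursors, was found in 24 members, Scgn in 21 and Resp18 in 14. All 13 granule genes listed had UMIs in members, and their sum was 325, 214, 312 and 995 CPM. Cacna1a, the pore of a presynaptic calcium channel, was found in 39 members at 143 CPM pooled, 55.7-fold above the other cells. Cplx2, which clamps vesicle fusion, was found in 35, Rab3c in 23, Rimbp2 in 17 and Syt13 in 17. Of 8 nutrient receptors listed, Ffar3, Gpr119, Gpbar1 and Gpr142 were at 0 UMIs, and the other 4 had at most 5.2 UMIs each.

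**Figure D4:**
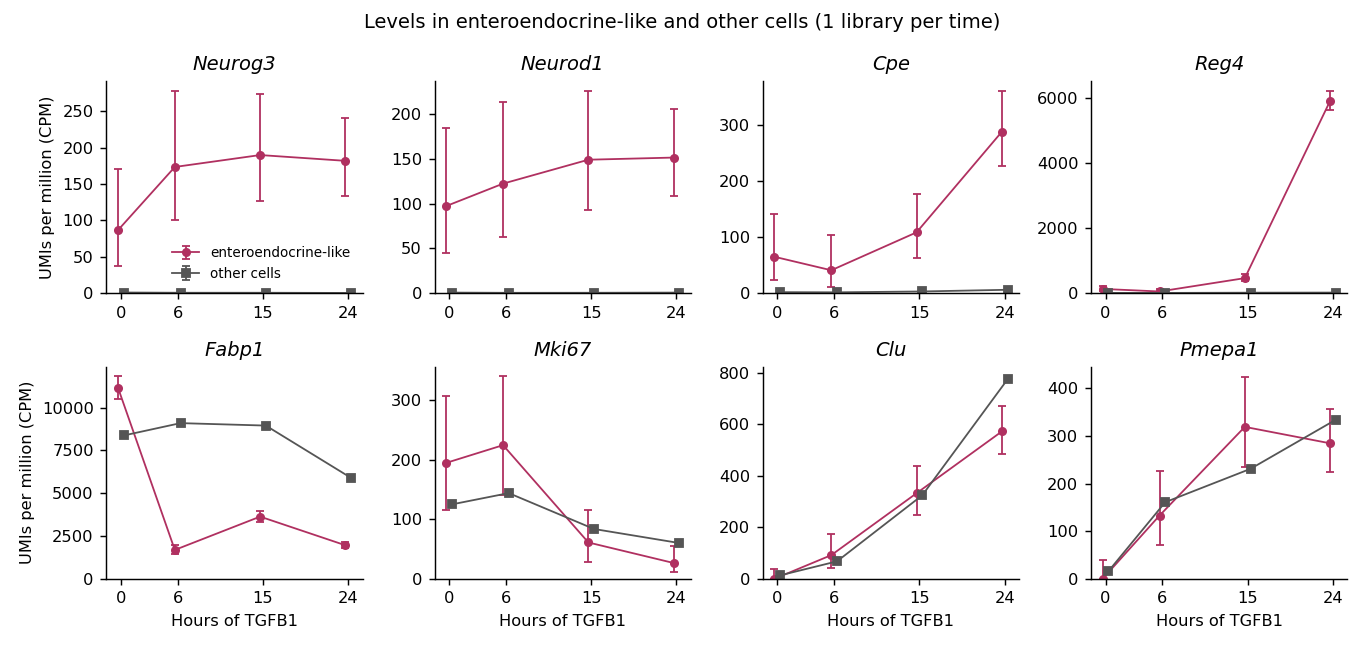
Level (y axis, CPM of the summed cells) of 8 genes against hours of TGFB1 (x axis) in enteroendocrine-like cells (red) and other cells (grey), with exact Poisson 95% intervals. Neurog3, Neurod1, Cpe and Reg4 lie near 0 in other cells. Clu climbs in both populations, and Pmepa1 lies above its 0 h level at each later time in both.

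Genes were ranked by their excess over the other cells. The 4 markers of the rule were left out, as were genes with under 50 UMIs in members or a UMI in under 10% of them. Afp fell to the last condition. Of the 2081 genes left, 54 (2.59%) were at least 2-fold higher in members in each of the 4 libraries and 3 (0.144%) at least 2-fold lower. Among the higher genes the largest excess was that of Fev, followed by Gfra3, Neurog3 and Neurod1. The filter on member UMIs lets in genes that are high in members more readily than genes that are low there. The 20 with the highest pooled ratio included Gfra3 (a receptor of the GDNF family, 371-fold), Hmgn3 (253-fold), Celf3 (a splicing regulator of neural and endocrine cells, 251-fold), Reg4 (236-fold, with 37.0% of its UMIs in one cell), Olfm1 (205-fold), Vwa5b2 (168-fold), Hepacam2 (53.6-fold), Aplp1 (53.3-fold), Clps (30.9-fold) and Cdkn1c (27.5-fold). The rest of the 20 were Neurog3, Neurod1, Nkx2-2, Fev, Cacna1a, Cpe, Cplx2, Ghrl, Gcg and Sct. The lower genes were drawn from another set, the 1569 genes with at least 100 CPM in the other cells. The 10 with the lowest ratio there were between 2.63-fold and 3.08-fold lower and comprised Ugt1a7c, Mgst2, Ndufb6, Arg2, Mal2, Aldh1a1, Reg1, Cyb5a, Hmgb2 and Enpep. Reg1, a secreted lectin of the regenerating gut, stood at 1731 CPM in members and 4731 CPM in the others.

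Markers of other cell types were present in members to differing degrees. All 5 immune genes were at 0 UMIs, as were 4 of 5 mesenchymal genes (Col1a1, Col3a1, Pdgfra and Dcn). Tuft cell genes summed to 31.6 CPM in 7 members, with Gnat3 and Il17rb at 0. Neuronal genes, some of which endocrine cells also make, summed to 64.9 CPM in 25 members, mainly Tubb3, and Uchl1 and Prph were at 0. Enterocyte genes were found in every member at 16831 CPM pooled, against 24224 CPM in the other cells. Goblet genes summed to 1429, 3436, 815 and 2580 CPM in members over time, against 453, 442, 315 and 419 CPM in the others, mostly through Tff3. Muc2 was found in 3 members and Clca1 in none. Paneth genes summed to 1090, 809, 2938 and 4717 CPM, against 583, 643, 793 and 1117 CPM. Lyz1 alone was at 963 CPM in members and 200 CPM in others at 24 h. At that time the 19 least secure members, with marker sums of 5 to 10, held more of the Paneth genes Defa17, Defa24 and Lyz1. They stood at 2482, 2972 and 1281 CPM, against 341, 702 and 706 CPM in the 24 members of at least 20. One member held 42.8% of the Defa17 UMIs of all members. At 0 h the order of the same bands was the reverse for each of these genes. The part of the markers of other cell types in the other results was not tested.

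Fabp1 showed how single cells weighed on small pools. The members at 0 h stood at 11162 CPM of Fabp1, the fatty acid binding protein of enterocytes, and those at 24 h at 1957 CPM. One cell held 71.1% of the 0 h UMIs, 733, and 2 others held 111 and 107. It met the rule at 5.70 per 10000 through 6 Chgb UMIs among 10533. Among members with at least 2 markers, which include none of these 3 cells, the direction turned, with a log2 ratio of 24 h to 0 h of 0.61, and among those of at least 10 per 10000, again without the 3, it was 0.31.

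Levels in the members at 24 h were set beside those at 0 h for genes with at least 30 UMIs in the pool where they were higher. The pool at 24 h held 263686 UMIs and that at 0 h 92368, so a lower level at 24 h was enough to enter, and the counts lean toward higher genes. Of 1171 such genes, 254 (21.7%) were at least 2-fold higher at 24 h and 50 (4.27%) at least 2-fold lower. In the other cells the same genes gave 109 (9.31%) and 11 (0.939%). Small pools scatter more than large ones, so these counts are not compared further.

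Among the genes so filtered, those with the highest ratios were Reg4, Afp, Clu, the Sprr2a genes, Nupr1 and several small RNAs. Beside Reg4 (45.5-fold, against 2.38-fold in the other cells) stood Sprr2a1 and Sprr2a2, near-identical genes of the cornified envelope that share reads, each at 18.8-fold. Clu, a chaperone of regenerating epithelium, went from 0 UMIs to 573 CPM in 32 cells, at least 17.6-fold higher by a floor of 3 UMIs, and 58.0-fold in the other cells. Nupr1, a stress gene, went from 1 to 119 UMIs, of which 54.6% lay in one cell. The small RNA 7SK was 34.2-fold higher in members and 10.7-fold higher in the other cells. Gm25829, Gm24019, Gm42826 and 2 genes without a symbol completed the 12, with Afp.

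The 12 genes with the lowest ratios among those with at least 30 UMIs at 0 h were lower in the other cells too. Genes with fewer UMIs could be lower still, as Mki67 was (7.34-fold). Hspd1 and Hspe1, the 2 subunits of the mitochondrial chaperonin, were 3.87-fold and 3.63-fold lower in members and 1.99-fold and 1.90-fold lower in the other cells. Ccnd2, a cyclin of the G1 phase, was 2.98-fold lower and Npm1, a nucleolar chaperone, 2.90-fold lower. Clca3b (6.32-fold), Gstm3 (4.76-fold), Snrpf (3.39-fold), Tspan8 (3.23-fold), Hmgb1 (2.98-fold), Btf3 (2.85-fold) and Phb2 (2.82-fold) completed the list with Fabp1. Each of these was also lower in the other cells, by 1.15-fold to 3.43-fold.

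The proliferation list summed to 1042, 1440, 571 and 430 CPM in members over time, and the stem cell list to 2762, 2831, 3470 and 1587 CPM. Mki67, a marker of cycling cells, was at 195 CPM (115 to 308) at 0 h, 225 (141 to 340) at 6 h, 61.1 (27.9 to 116) at 15 h and 26.5 (10.7 to 54.7) at 24 h. The 24 h interval lay below those at 0 and 6 h. The other cells went from 125 to 60.1 CPM. Olfm4, a gene of crypt base cells, was at 1710, 1695, 2294 and 838 CPM in members and at 1633 CPM in the others at 24 h. Lgr5 had at most 3.08 UMIs in any pool, where fractions come from reads shared between genes.

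Pmepa1 and Clu, genes that respond to TGFB1 or to injury, were higher at the TGFB1 times in members and in the other cells. Pmepa1, a feedback inhibitor of the pathway, had 0 UMIs in the members at 0 h (up to 39.9 CPM), then 133, 319 and 284 CPM, against 15.7, 161, 231 and 334 CPM in the other cells. It was found in 29 of the 49 members at 24 h. Smad7, an inhibitory SMAD, stood at 34.1 CPM in members and 40.5 CPM in others at 24 h. The regenerative list went from 249 to 1923 CPM in members and from 306 to 3318 CPM in the others. Within it Anxa1 was at 15.2 CPM in members against 98.9 CPM in the others at 24 h, S100a6 at 740 against 1782 CPM, and Ly6a at 1 UMI.

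Pyy, the hormone of distal L cells, was found mainly outside the enteroendocrine-like cells. The libraries held 0, 9, 89 and 863 Pyy UMIs at 0, 6, 15 and 24 h. Cells with at least 3 Pyy UMIs numbered 0, 1, 8 and 21, and none was a member. Members held 4 of the 863 UMIs at 24 h, in 3 cells. The 21 Pyy cells at 24 h had a median of 21062 UMIs, carried Clu at 3793 CPM against 773 CPM in all kept cells, and had 0 UMIs of Gcg and Neurod1.

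Bulk RNA gave a replicated view of the same genes, though there fewer cells of a type and less RNA per cell cannot be told apart. Values are fragments scaled to transcript length and library size (FPKM), and differences are TGFB1 minus vehicle on the log2(FPKM + 1) scale, tested with limma and Benjamini-Hochberg adjustment over all genes, 2-sided. This scale understates the change of low genes. The tables give no sequencing depth. The labels do not say whether the 3 libraries of a group came from separate cultures, so the p-values measure the spread between these libraries, which may be technical.

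In irradiated organoids at D7, right after the exposure, hormone and granule genes were higher with TGFB1 while Neurog3 and Insm1 were lower. Of 77 enteroendocrine genes 51 were tested, of which 41 rose and 4 fell, where 35.8% and 39.7% of all genes tested did so. The median log2 change was 0.55 for them and -0.03 for all genes. All 12 hormones tested and all 12 granule genes tested rose. Sox4 (2.05) and Gch1 (2.29) also rose in non-irradiated organoids, by 1.61 and 1.95. Sox4 is not particular to the lineage here, since the cells outside the members held 566 CPM of it at 24 h.

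Chga read 63.7, 65.3 and 62.5 FPKM with vehicle and 120, 116 and 121 FPKM with TGFB1. The groups did not overlap, and the log2 difference was 0.89 ± 0.04 (SE, limma adjusted p = 5.5e-09). Chgb read 117, 119 and 123 FPKM with vehicle and 209, 191 and 201 FPKM with TGFB1, again apart, with a difference of 0.74 ± 0.04 (limma adjusted p = 5.89e-08). Cck read 240, 246 and 276 FPKM with vehicle and 674, 659 and 693 FPKM with TGFB1. Its difference of 1.41 ± 0.05 (limma adjusted p = 2.98e-09) was the largest of the 4 markers.

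Insm1 moved the other way, with 6.36, 5.55 and 5.77 FPKM in vehicle and 4.82, 4.94 and 4.46 FPKM in TGFB1 libraries. Its difference was -0.26 ± 0.07 (limma adjusted p = 0.00499). Neurog3, the earliest factor, read 11.8, 12.1 and 12.0 FPKM with vehicle and 6.39, 5.07 and 4.76 FPKM with TGFB1. All TGFB1 libraries lay below all vehicle libraries, with a difference of -1.03 ± 0.09 (limma adjusted p = 1.4e-06). The single-cell libraries, at 1 ng/mL and 1 library per time, did not have this direction at 24 h. There Insm1 over all kept cells stood at 3.18, 1.88, 2.93 and 5.19 CPM at 0, 6, 15 and 24 h. Neurog3 within members was not lower at 24 h than at 0 h, with overlapping intervals. The reason for this difference was not tested. Fev rose by 0.50 (limma adjusted p = 7.27e-05), Nkx2-2 did not pass (0.11, limma adjusted p = 0.156), and Neurod1 passed at 0.30 (limma adjusted p = 0.0293) with overlapping groups. The Neurod1 call was lost without any one of 4 libraries, at adjusted p of 0.0857 to 0.112: vehicle replicates 2 and 3 and TGFB1 replicates 1 and 3.

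Among hormones, Gcg read 116, 121 and 131 FPKM with vehicle and 284, 305 and 315 FPKM with TGFB1, all apart, a difference of 1.29 ± 0.05 (limma adjusted p = 8.19e-09). Gip went from a mean of 216 ± 17.3 to 476 ± 38.3 FPKM (SD, n = 3), Sst from 200 to 380 FPKM, Ghrl from 84.3 to 178 FPKM and Sct from 13.8 to 25.7 FPKM, each called higher. Pyy rose the most of the list, from 1.27 ± 0.344 to 368 ± 71.0 FPKM. It is not particular to the lineage here, since members held 4 of the 863 Pyy UMIs in the 24 h single-cell library. Most Gcg and Gip UMIs of the single-cell libraries also lay outside the members. The bulk values of Gcg and Gip therefore do not describe members alone. Tac1 and Tph1 rose by 0.40 and 0.73, and Cpe by 1.36.

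Non-irradiated organoids at D7 gave a mixed picture. Of 46 tested genes 12 rose and 8 fell, where 33.3% and 34.9% of all genes did so, with a median of -0.00. Chga (40.8 ± 1.16 to 42.7 ± 1.24 FPKM, limma adjusted p = 0.156) and Chgb (133 ± 3.47 to 125 ± 5.59 FPKM, limma adjusted p = 0.0569) did not pass. Chgb was called lower without vehicle replicate 1 (-0.11, limma adjusted p = 0.0432), without TGFB1 replicate 2 (-0.12, limma adjusted p = 0.0172) and under quantile normalization (-0.20, limma adjusted p = 0.000404). Cck read 144, 153 and 146 FPKM with vehicle and 177, 156 and 168 FPKM with TGFB1, a difference of 0.17 ± 0.05 (limma adjusted p = 0.00667). That call ended under quantile normalization (0.09, limma adjusted p = 0.119) and with all 18 libraries in one fit (limma adjusted p = 0.201). Neurog3 fell from 5.96 ± 0.532 to 3.25 ± 0.816 FPKM (limma adjusted p = 0.000712), Nts by 1.49, Tac1 by 0.18 (limma adjusted p = 0.0297, lost without vehicle replicate 2, vehicle replicate 3 or TGFB1 replicate 2 at adjusted p of 0.0867, 0.0914 and 0.0860), Pcsk1 by 0.48 and Gcg by 0.31, while Pyy rose by 3.13.

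The effect at D7 differed between irradiated and non-irradiated organoids for most of these genes. Of 50 genes in the interaction over 12 libraries, 36 had a more positive and 2 a more negative effect after irradiation, where 25.3% and 27.8% of all genes did. The difference was 0.82 ± 0.05 for Chga (limma adjusted p = 9.84e-09), 0.83 ± 0.06 for Chgb (limma adjusted p = 4.41e-08) and 1.24 ± 0.07 for Cck (limma adjusted p = 1.12e-08). For Insm1 (0.10 ± 0.11, limma adjusted p = 0.466) and Neurog3 (-0.30 ± 0.17, limma adjusted p = 0.161) it did not pass.

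**Figure D5:**
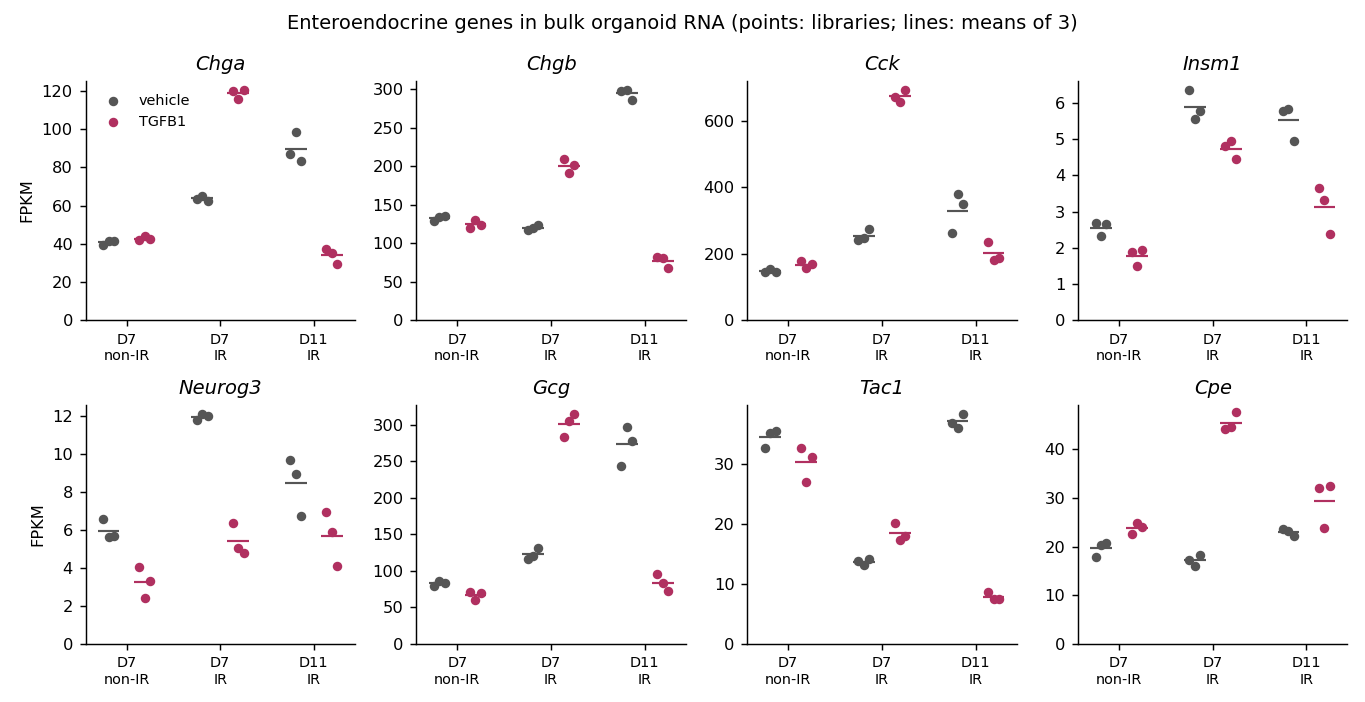
Bulk level (y axis, FPKM) of 8 enteroendocrine genes in non-irradiated D7, irradiated D7 and irradiated D11 organoids (x axis) with vehicle (grey) or TGFB1 (red), 3 libraries each, lines at the means. Chga, Chgb, Cck and Gcg stand above vehicle at irradiated D7 and below it at D11, and Neurog3 has the lower mean with TGFB1 in all 3 conditions.

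By D11 the direction had turned for many hormones and granule genes. Called lower were 6 of 11 hormones and 8 of 12 granule genes tested, and called higher were 1 and 2. Of 51 tested genes 8 rose and 32 fell, where 32.3% and 31.6% of all genes did, with a median of -0.50 against 0.01 for all genes. Chga read 87.0, 98.7 and 83.4 FPKM after vehicle and 37.1, 35.4 and 29.5 FPKM after TGFB1, a difference of -1.38 ± 0.10 (limma adjusted p = 2.49e-06). Chgb read 298, 299 and 286 FPKM after vehicle and 81.7, 80.2 and 68.1 FPKM after TGFB1, a difference of -1.93 ± 0.09 (limma adjusted p = 2.19e-07). In both genes the groups were far apart. Cck, at 261, 379 and 350 FPKM after vehicle and 236, 181 and 187 FPKM after TGFB1, fell by 0.70 (SE 0.16, limma adjusted p = 0.00292), with its lowest vehicle library close to the highest TGFB1 library.

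Insm1 fell by 0.68 and Neurod1 by 0.91 at D11. Neurog3 fell by 0.52 (limma adjusted p = 0.0282) with overlapping groups, and that call was lost without vehicle replicate 1 (adjusted p = 0.103), vehicle replicate 2 (0.0908) or TGFB1 replicate 3 (0.0777). Tac1 fell most, by 2.11, from 37.0 ± 1.16 to 7.83 ± 0.658 FPKM (SD, n = 3), followed by Chgb, Tph1 (by 1.72), Gcg (by 1.70), Pcsk1 (by 1.69), Scg2 (by 1.43) and Ghrl (by 1.41). Sct, Pyy and Iapp did not pass, nor did Gip (182 against 157 FPKM, limma adjusted p = 0.0869), which was called higher without vehicle replicate 2 (limma adjusted p = 0.0326), under quantile normalization (limma adjusted p = 0.00038) and with all 18 libraries in one fit (limma adjusted p = 0.0182). Those that rose included Gast, Ffar4, Pam, Sox4, Gch1, Cpe and Foxa2.

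The D7 and D11 effects after irradiation differed by test for most of these genes, and for Chga, Chgb and Cck also in sign. Insm1 and Neurog3 were lower with TGFB1 at both days, and Sox4 and Cpe were higher at both. In the interaction over 12 libraries 40 of 51 genes had a more negative and 2 a more positive effect at D11, where 33% and 31.5% of all genes did. The difference was -2.27 ± 0.11 for Chga (limma adjusted p = 2.22e-09), -2.67 ± 0.10 for Chgb (limma adjusted p = 3.91e-10) and -2.11 ± 0.18 for Cck (limma adjusted p = 2.62e-07). Insm1 differed by -0.41 (limma adjusted p = 0.03), and Neurog3 by 0.51, which did not pass (limma adjusted p = 0.0569).

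Crypt cells sorted for Ki67-RFP held few cells that met the same rule. They numbered 7 of 1846 in the non-irradiated library, 0.379% (0.153 to 0.780%), and 8 of 719, 1.11% (0.482 to 2.18%), and 5 of 699, 0.715% (0.233 to 1.66%), in the 2 irradiated ones. In irradiated replicate 1 all 8 cells were chosen by Insm1 alone, with 107 Insm1 and 77 Neurog3 UMIs and none of Chga, Chgb or Cck. Among the organoid members 12 were likewise carried by Insm1 alone. In replicate 2 the 5 cells held 58 Insm1, 12 Chgb and 6 Chga UMIs, and 97 of their 98 Ghrl UMIs lay in one cell. The non-irradiated cells had 57 Chgb, 27 Chga, 24 Insm1 and 11 Cck UMIs. The Ki67-RFP gate selects cycling cells, and its part in these profiles was not tested.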

How the data were processed

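Single-cell values were estimated counts (UMIs, fractional where genes shared reads) in cell-by-gene matrices as deposited by the authors, from a PIPseq T2 protocol per the labels. Bulk values were FPKM in 3 separately normalized tables made by the authors. The submitters' processing notes list TopHat2 2.1.0, Cuffnorm 2.2.1, STAR 2.7.10a, STARsolo and Salmon 1.4, and the builds mm9, GRCm39 and mm39, without saying which step used which.

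Cells with under 500 UMIs or over 20% mitochondrial UMIs were left out. The kept cells held 26302424 to 32430950 UMIs per organoid library. Members were summed per library and given as UMIs per 1000000 UMIs (CPM) with exact Poisson 95% intervals, and shares with exact Clopper-Pearson intervals. Scrublet (scanpy 1.11.5) marked doublets, which were kept. Bulk log2(FPKM + 1) was tested within each table with limma 3.58.1 (trend, robust, R 4.3.3) after genes averaging under 1 FPKM were dropped, at an adjusted p of 0.05, and effects were compared by interaction over 12 libraries. The bulk fit and the ratio of summed single-cell counts were tried on simulated data. These simulations did not cover the membership rule, the shares or the thinning. Of genes outside the lists, those named are the 20 with the highest and 10 with the lowest member ratio and the 12 at each end of the 24 h to 0 h ratio. Members, lists and this naming rule were chosen with earlier results of these data known. ATAC-seq files were not used here.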

Additional observations from a re-analysis of the deposited data

Results flagged for a closer look

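The effect of TGFB1 on 10 enteroendocrine genes, picked by name, differed between conditions by limma's interaction test in bulk RNA. They are a part of those called. Between irradiated and non-irradiated organoids 36 of 50 enteroendocrine genes had a more positive and 2 a more negative effect, against 25.3% and 27.8% of all genes. Between D11 and D7 the counts were 2 and 40 of 51, against 31.5% and 33% of all genes. Between irradiated and non-irradiated organoids at D7, the log2 effect was larger after irradiation by 0.82 for Chga, 0.83 for Chgb, 1.24 for Cck, 1.60 for Gcg, 1.05 for Gip, 1.08 for Sst, 1.05 for Ghrl, 0.59 for Tac1 and 4.21 for Pyy. Between D11 and D7 after irradiation, the effect differed by -2.27 for Chga, -2.67 for Chgb, -2.11 for Cck and -0.41 for Insm1. For the hormones that difference was -2.99 for Gcg, -0.91 for Gip, -1.93 for Sst, -2.49 for Ghrl, -2.51 for Tac1 and -7.13 for Pyy. In the single cells Pyy lay mainly outside the enteroendocrine-like cells, so its values do not describe them. Most Gcg and Gip UMIs lay outside these cells as well. Each D7 irradiated library enters both sets of differences, so they are not independent of each other. At D7 TGFB1 was present until collection, and at D11 it had been withdrawn, so day and withdrawal cannot be told apart.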

How the results depend on the processing

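Shares of enteroendocrine-like cells at 0, 6, 15 and 24 h became 1.84, 1.82, 3.70 and 5.18% at a threshold of 2.5 per 10000, 0.307, 0.280, 0.657 and 1.35% at 10, 0.341, 0.327, 0.692 and 1.62% without Chgb, and 3.48, 3.16, 6.71 and 9.96% thinned to 2000 UMIs. With at least 2 markers the 6 and 15 h shares were 0.257 and 0.830%. Definitions by transcription factors, chosen after seeing the data, gave 0.233, 0.519 and 0.992% at 6, 15 and 24 h for 2 of 4 factors, and 0.657 and 1.22% at 15 and 24 h for members with a factor UMI. Fabp1 in members turned to 0.61 with at least 2 markers and 0.31 at a threshold of 10, where 3 Fabp1-rich cells at 0 h were no longer included. In bulk, 4 genes in place of 2 had a more positive effect at D11 than at D7 with a filter of 0.1 FPKM, which tests more genes. Leaving out 1 library gave 11 to 13 higher and 7 to 12 lower genes in non-irradiated organoids, 36 to 41 and 4 at irradiated D7, and 6 to 9 and 27 to 33 at D11. Uncalled changes that turned sign at non-irradiated D7 were Ghrl (-0.076 under quantile normalization, -0.014 to 0.049 with a library left out), Tph1 (0.015, and -0.10 to 0.10) and Sct (-0.24 to 0.0014), and at D11 Pyy (-0.11 to 0.43) and Sct (-0.16 to 0.21). The cause was not tested. Same-numbered bulk libraries had correlations of -0.03 to 0.16, 0.02 to 0.21 and -0.09 to 0.09 in the 3 tables, so the numbers were not taken to pair them. With a replicate block the counts were 12 higher and 10 lower, 41 and 4, and 8 and 33, and Chgb at non-irradiated D7 was called lower (limma adjusted p = 0.0374). With 18 to 49 members per library, genes under 3 UMIs in a pool could not be compared.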
